A study of Mus musculus with 18 samples.

Results

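The data described here are RNA-seq values from neural stem cells (NSCs) of one spinal cord line and from astrocytes derived from them with BMP4. They are 6 of the 18 libraries of the series, chosen by their labels: 3 NSC and 3 astrocyte libraries of the line traced with EYFP. Gfap, C3, Myoc, Nes and listed genes of the S and G2/M phases were set aside, and the values of other genes, pathways and gene families are given. The cells came from mice labelled DNGR-1 +/- EYFP+/-, in which Cre made from the Clec9a locus (the gene of DNGR-1) switches on EYFP from the Rosa locus, so that cells with a history of DNGR-1 expression stay marked, and EYFP+ cells were sorted from spinal cord neurospheres. NSCs were kept as adherent cultures on laminin in DMEM:F12 with heparin, the N-2Max supplement, 20 ng/ml EGF and 20 ng/ml bFGF and were collected after 4 days. For astrocytes this medium was replaced with DMEM:F12 and 20 ng/ml BMP4, renewed after 3 days, and the cells were collected after 6 days. The addition of BMP4, the loss of EGF, bFGF, the N-2Max supplement, heparin and laminin from the medium and the additional days in culture therefore cannot be told apart. For astrocyte differentiation the study's methods also name plating on coverslips coated with poly-l-lysine, and this change of surface cannot be told apart either. The replicates were passages 10 to 12 of this 1 line, so the p-values measure the spread between its cultures and not between animals. For comparison, the series holds the same pair of groups from a spinal cord line traced with tdTomato (mice labelled DNGR-1 +/- Tom+/-) and from a hippocampal line of DNGR-1+/+ mice, for which the study's methods name a Glast Cre, a floxed Huwe1 and the Rosa EYFP allele, with 3 libraries in each of the 4 groups and the same culture steps.

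BMP4 is a secreted ligand of the TGF-beta family that binds a pair of type I and type II receptor kinases. The receptors phosphorylate SMAD1, SMAD5 and SMAD9, which enter the nucleus with SMAD4 and switch on target genes, among them the Id genes, whose products block neurogenic and oligodendrogenic helix-loop-helix factors. SMAD6, SMAD7 and secreted antagonists such as Noggin are induced by the same pathway and damp it. In culture, EGF and bFGF keep NSCs dividing, while BMP4 without these factors makes them leave the cycle and take on astrocyte features.

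The values are the deposited log2 values, relative to library size. Their form is that of a regularized log, which no source used here names; such a transform draws genes with few reads to their average, so that the changes of weak genes may be understated. The sources differ on the number of reads per library and the table gives none for the single libraries, so no counting error can be given, and the values of 2 genes cannot be set against each other as levels because they are not per length. Of 27997 genes in the table, 14669 were tested with limma. These had a value of about 10 or more on the linear scale (the expression limit) in 3 or more of the 6 libraries. The limits were set as rounded log2 values, and this one lay just under the log2 of 10. By the lowest of its 3 highest log2 values, 1700120C14Rik lay just inside this limit at 3.3202 and Gm14018 just outside at 3.3193. A gene was said to rise or fall when its Benjamini-Hochberg adjusted p was under 0.05, and changes are astrocyte minus NSC means on the log2 scale ± SE (n = 3 against 3). By this rule 10983 genes changed (74.9% of those tested), of which 5500 rose (37.5%) and 5483 fell (37.4%), while 3568 changed by at least 1 (24.3%), 2018 upwards (13.8%) and 1550 downwards (10.6%). The balance turned with the settings, to 6035 rises and 4990 falls with median centring, 4180 and 4722 with a limit of 100 on the linear scale and 4793 and 5207 without astrocyte replicate 3. The groups did not overlap for 11502 genes (78.4%), and the median change of all genes tested was 0.0039. Shares this high are the background against which each count below has to be read. Replicates of a group differed by a median of 0.0743 to 0.122 per gene. In all, 404 of the tested genes reached the limit only in the astrocytes and 211 only in the NSCs, and such genes had to differ to be tested at all.

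The astrocyte label was checked first with genes of astrocyte transport and metabolism. Of the 29 tested of 32 listed, 17 rose and 9 fell, with a median change of 0.99. Aqp4, the water channel of astrocyte endfeet, was at 9.87, 9.45 and 9.31 in NSCs and 13.75, 13.63 and 13.84 in astrocytes, so that the groups lay far apart (change 4.19 ± 0.13, adjusted p = 3e-09). Slc1a2, the main glutamate transporter of mature astrocytes, rose by 2.42 and Gja1, which encodes the main gap junction protein of astrocytes, by 1.54. Slc1a3, the glutamate transporter already present in radial glia, rose by only 0.23, a change that did not pass without NSC replicate 3, without astrocyte replicate 1 or without astrocyte replicate 3 and was -0.11 after quantile normalization. Aldh1l1, a folate enzyme widely used as an astrocyte marker, was at 7.15, 7.19 and 7.17 in NSCs and 7.06, 6.87 and 7.05 in astrocytes and did not pass the test (adjusted p = 0.14). Other genes of mature astrocytes fell: the GABA transporter gene Slc6a11 stood at 12.17, 12.01 and 11.56 in NSCs and 9.47, 8.84 and 9.62 in astrocytes (change -2.60 ± 0.20, adjusted p = 1.8e-06), and the potassium channel gene Kcnj10 changed by -0.47. The list thus split, with transporters and channels of the same cell type going in opposite directions. Of the markers of NSCs, Sox2 and Vim rose by 0.88 and 0.74, and Fabp7 and Msi1, the latter an RNA-binding protein of stem cells, fell (changes -0.42 and -0.29). In these bulk libraries fewer cells of a type and less RNA per cell cannot be told apart.

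Markers of other cell types were read in the same libraries. Among 9 microglial and macrophage markers in the table, Aif1, Csf1r, Ptprc, Itgam, P2ry12 and Tmem119 did not reach the expression limit in 3 libraries, and 3 passed the filter. Of these, the lysozyme gene Lyz2 passed only through the astrocytes, at 2.56, 2.54 and 2.60 in NSCs and 7.21, 6.81 and 6.97 in astrocytes, and the summed list lay at 9.42 to 9.62 in NSCs and 9.77 to 9.93 in astrocytes. Pecam1 and Cdh5 of endothelium, Pdgfrb, Vtn and Abcc9 of pericytes, Col3a1 of fibroblasts, Cd74 of antigen-presenting cells and Sox10 of Schwann cells also did not reach the limit. The pericyte genes Rgs5 and Kcnj8 did reach it in astrocytes only, with changes of 3.93 and 4.74, while Myl9, the other pericyte marker that passed, fell by 1.18. The summed pericyte list lay at 8.52 to 8.72 in NSCs and 8.57 to 8.79 in astrocytes, and the fibroblast list at 10.57 to 10.73 and 10.12 to 10.43. Endothelial markers, 2 of 8 past the filter, summed to 5.35 to 5.62 and 5.69 to 6.04, and dendritic cell markers, 4 of 8, to 8.46 to 8.56 and 8.92 to 8.95. The summed Schwann cell list, 5 of 7 past the filter, lay at 12.28 to 12.56 in NSCs and 10.37 to 10.49 in astrocytes; Egr2 and Pou3f1, which neural cells also express, fell in it (changes -3.10 and -3.59). The part of other cell types in the results below was not tested. Clec9a itself, which drove the labelling, is not analysed here.

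Within the BMP pathway most target genes rose, with a median change of 2.12, while the ligands and antagonists (median 0.11) and the receptors and SMADs (median 0.14) went both ways. Of 11 ligand and antagonist genes tested of 18 listed, 5 rose and 4 fell. Nog, which encodes the antagonist Noggin, was at 4.61, 4.77 and 3.86 in NSCs and 8.46, 8.17 and 7.65 in astrocytes, with the groups well apart (change 3.68 ± 0.26, adjusted p = 1.1e-06). Gdf11, a ligand of the activin branch, rose by 1.31 and Bmper, which encodes a BMP-binding modulator, by 1.12. Bmp7, the other ligand with a clear change, was at 9.14, 9.21 and 9.28 in NSCs and 5.95, 5.81 and 6.03 in astrocytes and fell by 3.28 (adjusted p = 2.5e-09). The antagonist genes Chrdl1 and Fst fell too, with changes of -1.94 and -2.29.

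Among 22 receptor and SMAD genes tested of 23 listed, 10 rose and 9 fell; with each library centred on its median, 5 fell. The type I receptor genes Bmpr1a and Bmpr1b rose by 1.48 and 2.21, while the type II receptor gene Bmpr2 was at 12.82, 12.83 and 12.79 in NSCs and 12.83, 13.08 and 12.93 in astrocytes. Smad9 was at 6.67, 6.82 and 6.28 in NSCs and 10.02, 9.98 and 10.15 in astrocytes and rose by 3.46 (adjusted p = 1.2e-08). Smad1 moved little, by 0.33, and Smad5 fell by 1.18, so the 3 receptor-activated SMADs of the BMP branch went different ways. The inhibitory Smad6 was at 5.16, 5.59 and 5.02 in NSCs and 9.07, 8.82 and 8.86 in astrocytes, a change of 3.66 ± 0.15, adjusted p = 2.7e-08, and the inhibitory Smad7 rose by 2.65. Of the pair of SMAD corepressor genes, Ski rose by 1.21 and Skil fell by 2.32.

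The target list held 18 tested of 22 listed genes, of which 14 rose and 3 fell. Id4 was at 6.75, 6.33 and 6.32 in NSCs and 10.48, 10.57 and 10.42 in astrocytes, so that no astrocyte library came near an NSC library (change 4.03 ± 0.12, adjusted p = 2.5e-09). Id1, Id2 and Id3 rose by 2.84, 2.65 and 1.92. Atoh8, a helix-loop-helix factor gene that answers BMP in many cells, was at 6.25, 6.13 and 6.36 in NSCs and 10.88, 10.78 and 10.72 in astrocytes and rose by 4.55. Msx1 rose by 2.33, Nbl1, which encodes a secreted BMP antagonist, by 2.38, and Bambi, which encodes a decoy receptor and was counted with the receptors, by 1.19. The members that fell were the transcription factor genes Gata3, Runx2 and Dlx1, with changes of -1.06, -1.13 and -1.56. The letters GGCGCC, a GC-rich SMAD element that reads the same on both strands, were searched from 250 bases before to 50 after the RefSeq start of each gene (GRCm38.p6). They stood in 6 of 15 BMP target genes with a promoter sequence (40.0%), 3 of 9 that rose and 1 of 3 that fell, and in 6 of 16 receptor and SMAD genes (37.5%), 3 of 7 that rose and 2 of 6 that fell, against 12.0% of all 27025 promoters. A match is a description of the sequence and not a measured site. The 250 bases before the starts of Id4 and Smad9, with a rise in each role, are shown with the match in capitals; they lie at chr13:48260866-48261115 and chr3:54755332-54755581, both on the + strand, and the Id4 match begins at -148 and the Smad9 match at -51 from the start.
Id4: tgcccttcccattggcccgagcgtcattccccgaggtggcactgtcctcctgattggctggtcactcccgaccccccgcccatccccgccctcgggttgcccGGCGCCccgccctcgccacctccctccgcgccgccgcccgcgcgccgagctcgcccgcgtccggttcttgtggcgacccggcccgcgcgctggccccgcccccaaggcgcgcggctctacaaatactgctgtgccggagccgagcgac
Smad9: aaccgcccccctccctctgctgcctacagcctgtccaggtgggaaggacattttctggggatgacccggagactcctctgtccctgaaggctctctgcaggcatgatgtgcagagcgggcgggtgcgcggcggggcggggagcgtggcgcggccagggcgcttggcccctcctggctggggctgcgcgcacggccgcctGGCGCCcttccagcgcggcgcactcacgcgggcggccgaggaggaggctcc

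**Figure D1:**
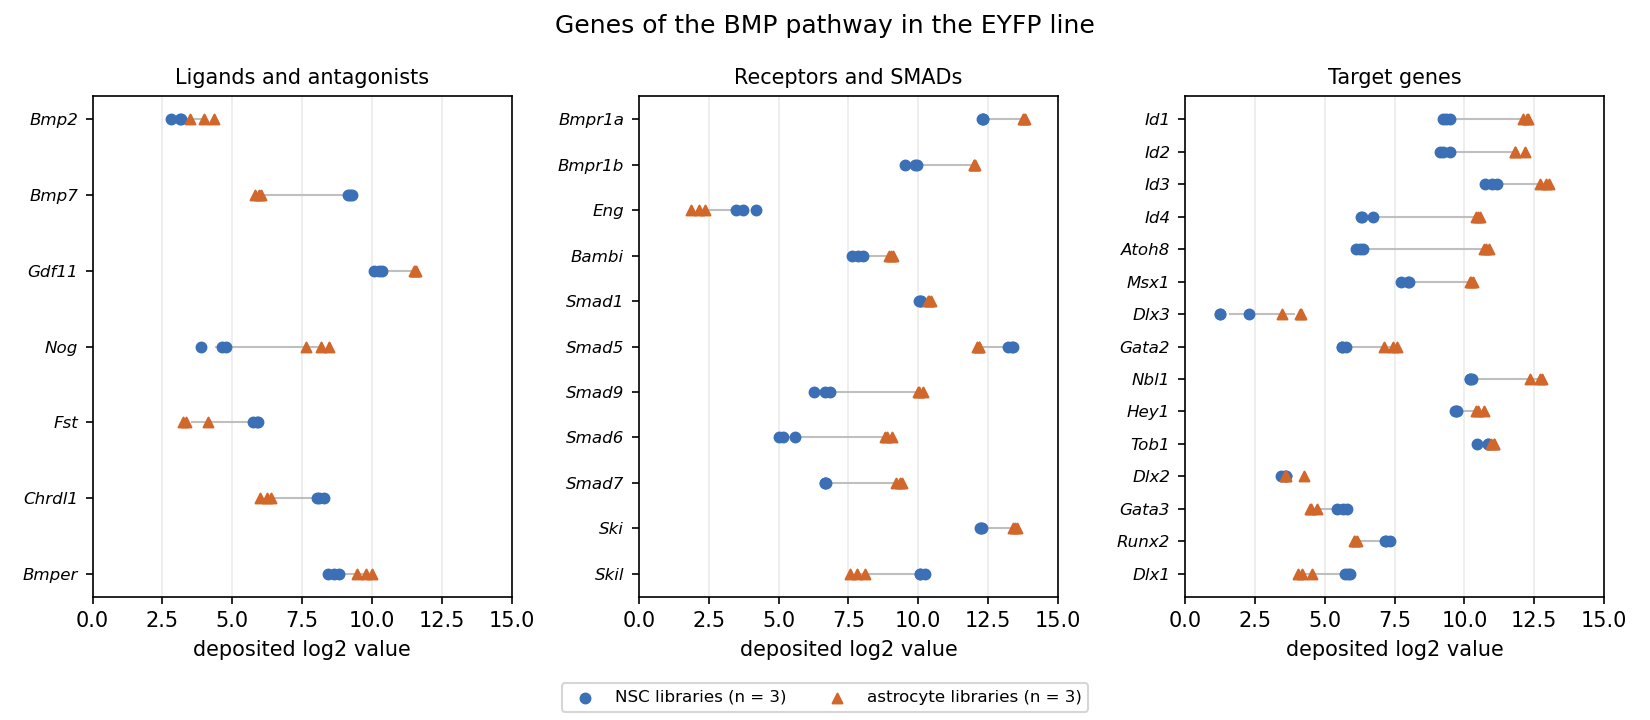
Deposited log2 values (horizontal axis) of genes of the BMP pathway by role, with 1 circle per NSC library and 1 triangle per astrocyte library of the EYFP line (n = 3 each) and a grey line joining the group means. Nog, Smad9, Smad6, Id4 and Atoh8 have astrocyte libraries far to the right of the NSC libraries, while Bmp7, Smad5 and Skil lie to the left.

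The 15 largest rises and the 15 largest falls were taken among protein-coding genes whose groups did not overlap and whose higher mean was at least 100 on the linear scale. Cidea, a lipid droplet protein gene known from brown fat, was at 4.27, 4.50 and 4.30 in NSCs and 10.80, 10.84 and 10.78 in astrocytes, a change of 6.45 ± 0.09, adjusted p = 7.4e-11. Aplnr, which encodes the apelin receptor, had a mean of 3.53 ± 0.23 (SD) in the NSC libraries and was at 9.89, 9.64 and 10.28 in astrocytes (change 6.40 ± 0.18, adjusted p = 2e-09). Hspb8, a small heat shock protein gene that works in chaperone-assisted autophagy, was at 7.40, 7.43 and 7.36 in NSCs and 13.92, 13.66 and 13.64 in astrocytes, a change of 6.35 ± 0.07, adjusted p = 3.6e-11. In all 3 genes the lowest astrocyte library stood more than 5 log2 units above the highest NSC library. Padi2, the peptidylarginine deiminase gene of glia, rose by 5.99, and Slc14a1, a urea transporter gene of astrocytes, by 5.67. Fmod and Podn, which encode small leucine-rich proteoglycans, rose by 5.59 and 5.30, and Sparcl1, which encodes the secreted synaptogenic protein hevin, by 5.36. The actin-binding protein gene Synpo2 rose by 5.47, and Ahnak, which encodes a very large scaffold protein, by 5.45. Tacr2, a tachykinin receptor gene, and Fam216b passed the filter only through the astrocytes, with changes of 5.33 and 5.30. The list closed with Pi15, which encodes a secreted protease inhibitor, at 5.65 and Tmem255a at 5.30.

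Among the 15 largest falls were 12 genes with changes from -5.75 to -5.07, led by Aspm, a spindle protein gene, of which most are known from cell division; they were Aspm, Pbk, Hist1h2ao, Troap, Pclaf, Ccna2, Ccnb1, Plk1, Depdc1a, Iqgap3, Knl1 and Pif1. Of these, Pif1, with -5.07, passed the filter only through the NSCs. The 12 were not on the list set aside, and reads of Hist1h2ao may be shared with near-identical histone genes. The other 3 have different roles. Mfsd2a, which encodes a transporter of lysophospholipids with docosahexaenoic acid, was at 10.10, 9.88 and 10.06 in NSCs and 4.73, 4.42 and 4.47 in astrocytes (change -5.47 ± 0.12, adjusted p = 4.8e-10). Grm5, the metabotropic glutamate receptor gene of immature astrocytes, was at 12.44, 12.51 and 12.21 in NSCs and 7.18, 7.38 and 7.42 in astrocytes (change -5.06 ± 0.09, adjusted p = 1.9e-10). Nrarp, a feedback inhibitor and target gene of Notch, was at 9.04, 8.92 and 9.14 in NSCs and 3.98, 3.69 and 4.33 in astrocytes (change -5.04 ± 0.16, adjusted p = 5e-09). For all 3 the highest astrocyte library lay below the lowest NSC library by more than 4 log2 units.

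**Figure D2:**
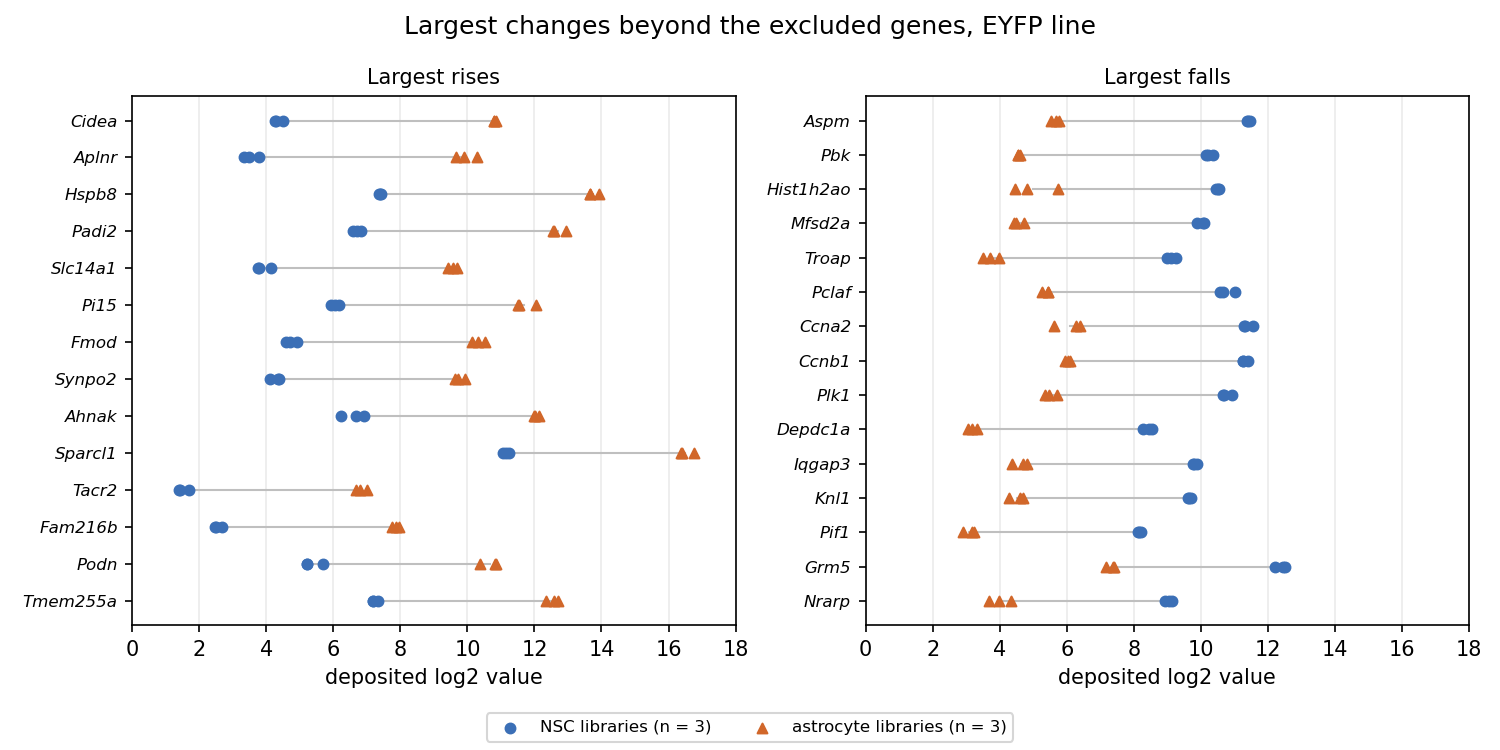
Deposited log2 values (horizontal axis) of the 15 strongest rises, 1 of which is not shown, and the 15 strongest falls in the EYFP line, with 1 circle per NSC library and 1 triangle per astrocyte library (n = 3 each) and a grey line joining the group means. Cidea has the widest gap of the rises, with a change of 6.45, and Aspm of the falls, with -5.75.

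EGF and bFGF act on receptor tyrosine kinases that switch on the MAPK cascade, whose target genes include its own brakes, the dual-specificity phosphatases, Sproutys and Spreds. Of 31 genes of MAPK feedback and early response, 26 fell, 1 rose and the median change was -1.44. Dusp6, the phosphatase gene that acts on ERK, was at 12.93, 12.86 and 13.08 in NSCs and 8.15, 7.94 and 7.97 in astrocytes (change -4.94 ± 0.07, adjusted p = 8.8e-11). Spry4 was at 12.10, 11.73 and 12.16 in NSCs and 8.15, 7.96 and 7.75 in astrocytes and fell by 4.04 (adjusted p = 3.7e-09), while Spry1 and Spry2 fell (changes -3.64 and -1.91). The ETS factor genes Etv4 and Etv5 fell (changes -1.80 and -1.79), as did the early response genes Fosb, Egr3 and Egr1 (-4.86, -4.41 and -2.59). Fosl2 rose by 0.55 (adjusted p = 0.02), a change that did not pass without astrocyte replicate 2 (adjusted p = 0.0662). Junb was at 12.42, 12.32 and 11.95 in NSCs and 12.64, 11.56 and 12.81 in astrocytes, with overlapping groups, and did not pass the test; without astrocyte replicate 2 it did, with a change of 0.49 (adjusted p = 0.00989). Among the receptors and ligands themselves, 18 tested of 21 listed, 8 rose and 5 fell. Egfr was at 13.97, 13.95 and 13.78 in NSCs and 11.92, 11.91 and 12.23 in astrocytes and fell by 1.88, whereas Fgfr1 and Fgfr3 did not pass the test, at changes of 0.01 and -0.06. The ligand genes Fgf2 and Tgfa rose by 1.41 and 1.42, and Ereg and Areg, which encode epiregulin and amphiregulin, fell (changes -3.60 and -1.34), Ereg passing the filter only through the NSCs.

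Genes of the other developmental pathways divided between rises and falls, as all genes tested did (37.5% rose and 37.4% fell). Such a division is therefore not particular to these lists. In the Notch pathway, in which Delta and Jagged ligands on one cell release the intracellular part of the receptor in the next, 10 of 27 tested genes rose and 13 fell. The ligand genes Dll1 and Dll3 fell (changes -1.83 and -2.76), while Dll4 was at 5.71, 5.52 and 5.73 in NSCs and 8.18, 7.98 and 8.18 in astrocytes and rose by 2.46. Hes1, a classical target, fell by 1.48, Hes5 did not pass the test (7.76, 7.95 and 8.01 in NSCs and 7.81, 7.75 and 7.80 in astrocytes), and Hey1, a target that BMP also induces, rose by 0.83. In the Wnt pathway 17 of 36 rose and 16 fell. Wnt7a was at 9.89, 9.94 and 9.82 in NSCs and 7.24, 6.78 and 7.32 in astrocytes (change -2.77 ± 0.13, adjusted p = 5.3e-08) and Wnt7b fell by 2.76, while Wnt9a and Wnt4 rose by 3.87 and 2.96. Axin2 and Lef1, which answer canonical Wnt signalling, rose by 1.07 and 1.51. Of the Hedgehog genes, 3 of 12 tested rose and 7 fell, among them Ptch1 (-1.17) and Hhip (-2.44, through the NSCs only), both target genes that hold the pathway back; without NSC replicate 3, 4 of the Hedgehog genes fell. TGF-beta and activin genes rose in 7 and fell in 7 of 17. There Tgfb2 was at 10.21, 10.34 and 10.04 in NSCs and 12.92, 13.08 and 13.12 in astrocytes (change 2.84 ± 0.08, adjusted p = 2.1e-09), whereas Ccn2 and Ccn1, which encode matricellular proteins induced by TGF-beta and by YAP, fell (changes -4.28 and -3.28).

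Factors of glial and stem cell identity were read by lineage. Of 19 gliogenic transcription factor genes, 9 rose and 6 fell. Hopx, a homeodomain cofactor gene of radial glia and astrocytes, was at 5.41, 5.46 and 5.49 in NSCs and 10.07, 9.75 and 10.10 in astrocytes (change 4.52 ± 0.11, adjusted p = 8.2e-10), and Sox9, Nfia and Zbtb20 rose by 0.81, 0.57 and 1.38. Among 25 tested neural stem and radial glia genes, 10 rose and 13 fell. Sox2 rose by 0.88, while Sox3, its close relative, was at 11.81, 11.81 and 11.87 in NSCs and 7.42, 7.15 and 7.75 in astrocytes and fell by 4.39 (adjusted p = 2.3e-09). Hmga2, a chromatin gene of young stem cells, fell by 3.04.

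In the oligodendrocyte list 9 of 16 tested genes fell and 5 rose, and genes of the precursor cells were among the falls and genes of myelin among the rises. Olig2, the lineage factor, was at 14.19, 14.12 and 14.38 in NSCs and 12.33, 12.27 and 12.27 in astrocytes (change -1.94 ± 0.07, adjusted p = 7.2e-09), and Nkx2-2, Cspg4, Olig1 and Pdgfra fell (changes -2.67, -1.76, -1.13 and -0.92). Cnp, a gene of myelinating cells, rose from 11.91, 12.00 and 11.94 to 13.14, 12.89 and 13.25, and Myrf, the factor of myelin genes, rose by 1.94. Enpp6 and Mal, with changes of 3.77 and 3.52, passed the filter only through the astrocytes, and with any one astrocyte library left out these no longer passed it, so that the list held 3 rises. Mbp, Mog and Mag did not reach the expression limit. Neuronal genes, 17 tested of 30 listed, rose in 4 and fell in 8. Dcx, the doublecortin gene of migrating neuroblasts, was at 2.50, 2.30 and 1.87 in NSCs and 4.76, 4.33 and 5.08 in astrocytes and passed only through the astrocytes, and Rbfox3 rose by 1.97, while Elavl4 and Stmn1 fell (changes -2.46 and -1.78). Snap25, Stmn2, Nefl, Neurod1 and Neurog2 did not reach the limit.

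Ependymal cells, which line the central canal, carry motile cilia, and 17 of 26 tested genes of that list of 48 rose while 4 fell. Foxj1, the factor that drives motile ciliogenesis, was at 10.31, 10.26 and 10.25 in NSCs and 11.22, 11.06 and 11.19 in astrocytes (change 0.89 ± 0.05, adjusted p = 2.9e-07), with no overlap. The dynein genes Dnah9 and Dnah5 had changes of 3.73 and 3.25 and passed only through the astrocytes, and Cfap44, Drc1 and Rsph1 rose by 2.43, 2.01 and 1.93. Not all axonemal genes rose: Cfap43 was at 10.54, 10.41 and 10.35 in NSCs and 7.62, 7.41 and 7.58 in astrocytes and fell by 2.90, and Hydin and Myb, the latter a factor of multiciliated cells, fell (changes -2.67 and -2.14). Gmnc and Mcidas, which start the multiciliated programme, did not reach the limit. With a limit of 100 in place of 10 on the linear scale, 5 of the cilium genes rose.

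Hox genes mark position along the body axis and are expressed in spinal cord but not in forebrain. Of 27 tested of 36 listed, 15 rose and 3 fell, with a median change of 0.36. Hoxa2 was at 7.72, 7.70 and 7.90 in NSCs and 9.25, 9.19 and 9.02 in astrocytes (change 1.38 ± 0.09, adjusted p = 4.7e-07), Hoxb9 and Hoxc9 rose by 1.19 and 0.96, and Hoxa5 moved by 0.19. Other homeobox genes rose in 13 and fell in 22 of 43, among the falls Pou3f1, from 10.44, 10.36 and 10.67 to 7.05, 6.96 and 6.69. Of 34 nuclear receptor genes, 22 rose and 7 fell. Rxrg, which passed only through the astrocytes, rose by 4.03, while the early response receptor genes Nr4a1 and Nr4a3 as well as Nr5a2 fell, with changes of -3.45, -2.33 and -3.77. Of 23 clock genes, 12 rose and 7 fell, with Dbp, an output gene of the clock, at 8.05, 8.14 and 7.91 in NSCs and 9.92, 10.00 and 10.18 in astrocytes (change 2.00 ± 0.09, adjusted p = 3.4e-08).

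**Figure D3:**
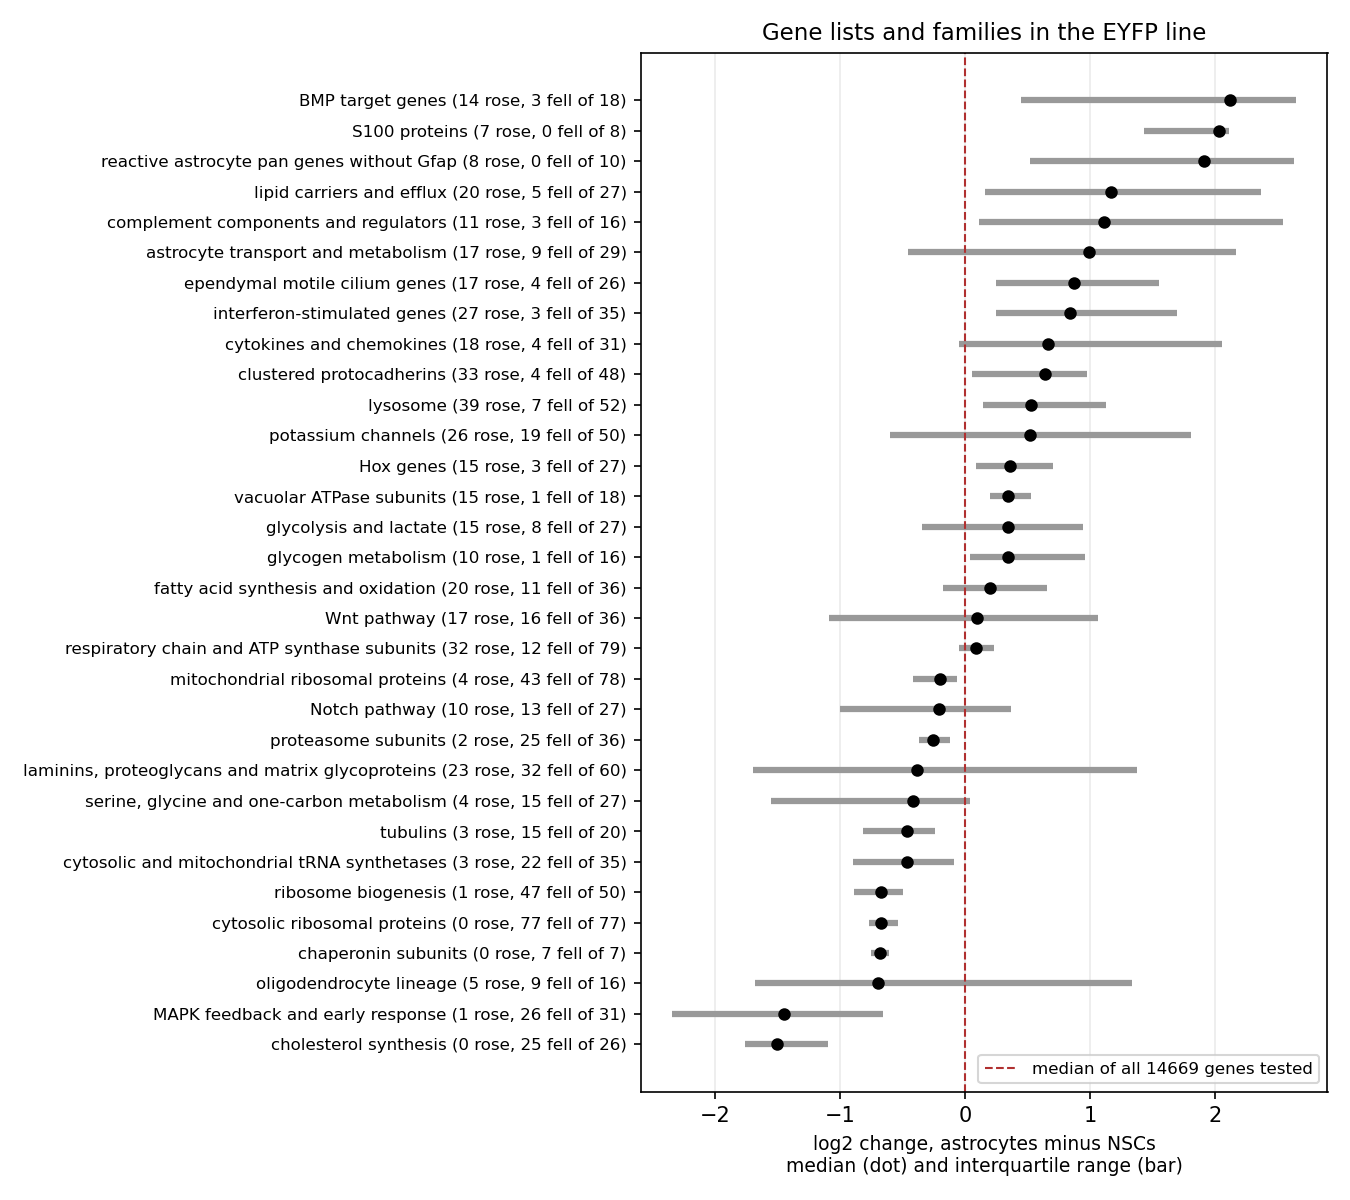
Median (dot) and interquartile range (bar) of the log2 change, astrocytes minus NSCs, over the tested members of 32 gene lists and families in the EYFP line, with the counts that rose and fell beside each name and the median of all 14669 genes tested as a dashed line. BMP targets, S100 proteins and lipid carriers lie furthest to the right together with the reactive genes, and MAPK feedback genes (median -1.44) and cholesterol synthesis (median -1.50) furthest to the left.

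Cholesterol synthesis was the list with the lowest median of those plotted. Astrocytes make cholesterol for other cells and hand it over on apolipoprotein E, and the enzymes are switched on by SREBP2 when membrane sterol is low. Of 26 genes, 25 fell and none rose, with a median change of -1.50. Fdps, which encodes farnesyl diphosphate synthase, was at 12.11, 11.81 and 12.25 in NSCs and 9.91, 9.74 and 9.76 in astrocytes (change -2.25 ± 0.10, adjusted p = 4e-08), with no overlap of the groups. Idi1, Lss and Sqle fell, with changes of -1.86, -1.76 and -1.16. Srebf2, which encodes SREBP2, moved by -0.53, and Ggps1, on the branch to isoprenoids, did not pass the test at -0.10. The letters CCAAT, the NF-Y box that works beside sterol elements, stood on either strand in 15 of the 17 fallen genes with a promoter sequence (88.2%) and in 37.9% of all promoters, and the sterol element letters TCACNCCAC in 1 of 17 (5.88%) and in 1.22%. The 250 bases before the starts of Hmgcs1, an early synthase of the pathway, and of Nsdhl, a late enzyme, are shown with each CCAAT, read on the other strand as ATTGG, in capitals; they lie at chr13:119690101-119690350 and chrX:72918271-72918520, both on the + strand. Hmgcs1 was at 14.65, 14.44 and 14.62 in NSCs and 13.46, 13.53 and 13.48 in astrocytes and Nsdhl at 11.18, 10.92 and 11.19 in NSCs and 9.50, 9.56 and 9.56 in astrocytes.
Hmgcs1: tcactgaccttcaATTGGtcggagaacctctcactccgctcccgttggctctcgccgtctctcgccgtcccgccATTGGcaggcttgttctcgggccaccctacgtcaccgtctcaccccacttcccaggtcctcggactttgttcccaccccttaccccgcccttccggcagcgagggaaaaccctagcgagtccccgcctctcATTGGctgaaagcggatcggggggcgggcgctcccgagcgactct
Nsdhl: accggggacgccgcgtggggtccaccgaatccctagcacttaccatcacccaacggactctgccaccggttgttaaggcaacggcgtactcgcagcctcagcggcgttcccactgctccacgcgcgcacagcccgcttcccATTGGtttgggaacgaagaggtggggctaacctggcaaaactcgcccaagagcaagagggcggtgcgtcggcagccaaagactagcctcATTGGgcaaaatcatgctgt

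Lipid carriers and efflux genes went the other way: of 27 tested of 31 listed, 20 rose and 5 fell, with a median change of 1.17. Of the 27, 2 passed the filter only through the astrocytes. Apoe was at 13.79, 13.66 and 12.98 in NSCs and 16.03, 15.67 and 16.08 in astrocytes (change 2.45 ± 0.19, adjusted p = 2e-06), and Clu, which encodes the lipid-binding chaperone clusterin, at 8.84, 8.92 and 8.43 in NSCs and 13.37, 13.26 and 13.42 in astrocytes (change 4.62 ± 0.11, adjusted p = 9.5e-10). The groups lay apart in both, although NSC replicate 3 was the lowest NSC library for each. Abca1, the efflux pump that loads apolipoprotein E, rose by 2.38, Nr1h3, the sterol-sensing receptor LXR-alpha, by 1.60, and Mylip, its target and a ubiquitin ligase gene, by 1.32. Lcat, Lpl and Apoc1 of lipoprotein metabolism rose by 3.60, 2.68 and 3.44, and Plin4 of lipid droplets by 4.13. Fatty acid genes rose in 20 and fell in 11 of 36: the synthesis genes Fasn, Acly and Elovl6 fell (changes -0.68, -1.01 and -1.46), and the oxidation genes Hadhb and Acadm rose by 0.98 and 0.95.

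In the lists of amino acid supply more genes fell than rose, and here the NSC libraries differed from each other. ATF4 switches on amino acid synthesis, transport and tRNA charging when amino acids run short. In the list of the unfolded protein and integrated stress responses, 16 of 33 genes fell and 5 rose. Asns, the asparagine synthetase gene, was at 11.62, 12.41 and 10.63 in NSCs and 9.14, 9.06 and 9.10 in astrocytes (change -2.45 ± 0.34, adjusted p = 0.00011), and Trib3 at 6.80, 8.17 and 5.57 in NSCs and 4.93, 5.21 and 4.54 in astrocytes (change -1.95 ± 0.52, adjusted p = 0.0071). Chac1, a glutathione-degrading enzyme gene, was at 8.42, 9.32 and 6.97 in NSCs and 7.03, 7.09 and 6.92 in astrocytes (change -1.22 ± 0.46, adjusted p = 0.035), and without NSC replicate 2 its change was -0.68 (adjusted p = 0.0966). For all 3 NSC replicate 2 was the highest and NSC replicate 3 the lowest NSC library, and for Chac1 the latter overlapped the astrocytes; the Chac1 call was also lost without NSC replicate 1 or any single astrocyte library, at adjusted p from 0.0775 to 0.0838. That order held for 15 of 33 genes of this list (45.5%), for 12 of 27 genes of serine, glycine and one-carbon metabolism (44.4%) and for 16 of 35 tRNA synthetase genes (45.7%), against 20.5% of all genes tested and 0 of 26 cholesterol genes. The part of this spread in the changes was not tested. Among genes of protein folding in this list, Hspa5, the main chaperone of the endoplasmic reticulum, fell by 0.54, Xbp1 was at 9.40, 9.55 and 9.28 in NSCs and 9.50, 9.42 and 9.30 in astrocytes, and Dnajb9 rose by 1.28. Of the serine and one-carbon list, 15 of 27 fell and 4 rose. Psat1 was at 13.62, 13.91 and 13.42 in NSCs and 11.07, 11.07 and 10.98 in astrocytes (change -2.61 ± 0.10, adjusted p = 1.7e-08) and Mthfd2 fell by 2.51, while Phgdh, the first enzyme of serine synthesis, stood at 13.16, 13.49 and 12.85 in NSCs and 13.25, 12.98 and 13.14 in astrocytes with overlapping groups. Of 35 tRNA synthetase genes, 22 fell and 3 rose; with median centring or quantile normalization 5 rose. Iars and Cars, for isoleucine and cysteine, fell (changes -1.82 and -1.77), and the amino acid transporter genes Slc7a1, Slc7a5 and Slc1a5 fell (changes -2.48, -1.61 and -2.76). TGATGNAA, the letters of an amino acid response element, stood on either strand in 5 of 30 listed genes of the stress list (16.7%), 3 of 14 that fell and 0 of 5 that rose, and in 0 of 22 genes of the serine list, against 4.06% of all promoters. The 250 bases before the start of Asns, at chr6:7693210-7693459 on the - strand, hold them at -23, in capitals.
Asns: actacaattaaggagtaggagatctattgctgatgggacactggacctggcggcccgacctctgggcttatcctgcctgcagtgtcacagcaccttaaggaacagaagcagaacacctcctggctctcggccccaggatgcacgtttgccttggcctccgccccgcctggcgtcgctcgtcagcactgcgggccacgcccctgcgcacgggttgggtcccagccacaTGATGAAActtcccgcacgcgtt

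In the lists of the translation machinery more genes fell than rose. Of 77 tested cytosolic ribosomal protein genes all 77 fell, 76 of them with median centring, and none rose, with a median of -0.67 and a range from -1.07 for Rps26 to -0.17 for Rpl38. Rps26 was at 13.23, 13.25 and 13.29 in NSCs and 12.22, 12.12 and 12.23 in astrocytes, whereas Rpl38 was the member that did not pass with median centring (adjusted p = 0.0933) or without any one NSC library or astrocyte replicate 2 (adjusted p 0.0526 to 0.0583). In the ribosome biogenesis list 47 of 50 fell, with a median of -0.67 as well. Nop56, a core protein of the particles that methylate ribosomal RNA, was at 11.27, 11.42 and 11.30 in NSCs and 10.16, 10.02 and 9.79 in astrocytes (change -1.34 ± 0.09, adjusted p = 5.4e-07), Npm1, which encodes nucleophosmin, fell by 1.03, and Polr1b, a subunit of RNA polymerase I, fell by 0.84. The exception was Imp4, which rose by 0.18. Mitochondrial ribosomal protein genes fell in 43 of 78 and rose in 4 (8 with median centring), all 7 chaperonin genes fell, with a median of -0.68, and 25 of 36 proteasome genes fell. Respiratory chain and ATP synthase genes moved little, with 32 of 79 that rose, 12 that fell and a median of 0.09; Cox8b, at 3.81, stood apart and passed only through the astrocytes.

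Lysosomes degrade material from uptake and autophagy, and TFEB, TFE3 and MITF switch on their genes. Of 52 tested genes of the list, 39 rose and 7 fell, with a median of 0.53. Lamp1, the most used membrane marker of lysosomes, was at 13.80, 13.82 and 13.82 in NSCs and 15.06, 15.06 and 15.05 in astrocytes (change 1.24 ± 0.05, adjusted p = 2.2e-08), with replicates that hardly differed. The protease genes Lgmn, Ctsb and Ctsd rose by 1.62, 1.53 and 1.34, Psap, the precursor of the saposins, by 1.47, and Lamp2 by 1.41. Tfeb itself was at 7.84, 7.73 and 7.68 in NSCs and 9.04, 8.91 and 8.99 in astrocytes (change 1.23 ± 0.08, adjusted p = 4.1e-07), and Mitf rose by 1.18. Gla and Gusb, which encode lysosomal glycosidases, fell (changes -0.67 and -0.64). Of 18 subunits of the vacuolar ATPase, the proton pump of these organelles, 15 rose and 1 fell (Atp6v0e2, -0.18), led by Atp6ap2 at 1.02. CACGTG, the core letters of the element that TFEB binds and also the E-box of MYC, stood in the promoters of 12 of 44 listed lysosomal genes (27.3%), 9 of 34 that rose (26.5%) and 2 of 5 that fell (40.0%), and of 10 of 44 listed ribosome biogenesis genes (22.7%), against 7.24% of all promoters. In the 250 bases before the start of Lamp1 (chr8:13158911-13159160, + strand), shown as the member with 4 matches, they are in capitals.
Lamp1: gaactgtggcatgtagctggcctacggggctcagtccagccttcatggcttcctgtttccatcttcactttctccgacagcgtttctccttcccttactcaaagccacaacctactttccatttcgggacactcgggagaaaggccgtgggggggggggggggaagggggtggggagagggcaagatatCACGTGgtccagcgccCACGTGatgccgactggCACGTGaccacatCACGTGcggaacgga

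**Figure D4:**
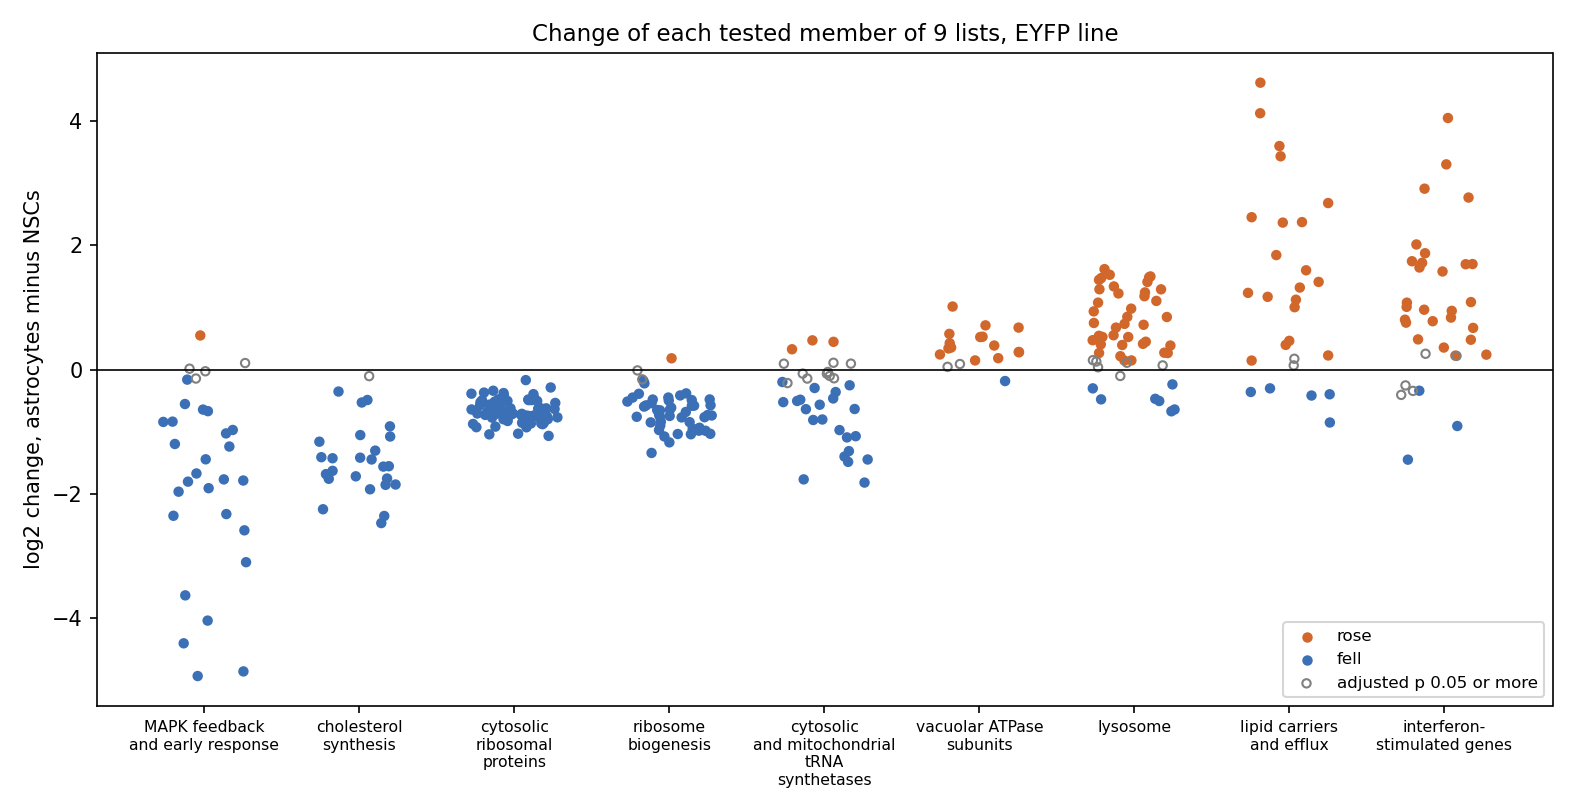
Log2 change, astrocytes minus NSCs (vertical axis), of each tested member of 9 lists in the EYFP line, with 1 point per gene, coloured where it rose or fell and open where the adjusted p was 0.05 or more; the horizontal spread within a list has no meaning. The 77 cytosolic ribosomal proteins form a narrow band below 0, the MAPK feedback and cholesterol genes reach further down, and most lysosomal, lipid carrier and interferon-stimulated genes lie above 0.

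Among energy genes, members of the same enzyme or transporter family went opposite ways. Of 27 genes of glycolysis and lactate, 15 rose and 8 fell. Hk2, the hexokinase gene of growing cells, was at 8.79, 9.24 and 9.23 in NSCs and 4.90, 4.72 and 4.84 in astrocytes (change -4.26 ± 0.14, adjusted p = 5.1e-09), and Hk1 rose by 0.78. The kinases that hold pyruvate back from the mitochondria, Pdk4 and Pdk2, rose by 2.65 and 2.02, Ldhb by 1.39 and the lactate transporter gene Slc16a1 by 2.38, while Slc16a3, its relative for export, fell by 1.41. The common enzymes Gapdh, Pkm and Ldha fell by small amounts (-0.42, -0.35 and -0.34). Glycogen is stored in the brain mainly in astrocytes, and 10 of 16 genes of its metabolism rose. Pygb, the brain glycogen phosphorylase gene, was at 12.09, 12.06 and 11.82 in NSCs and 14.95, 14.86 and 14.93 in astrocytes (change 2.92 ± 0.07, adjusted p = 1.2e-09), and Ppp1r3c, which targets a phosphatase to glycogen, rose by 1.78; the only fall, Pygl, the liver form (-0.73, adjusted p = 0.045), was lost with median centring and without any one library except NSC replicate 2 or astrocyte replicate 2. Antioxidant genes rose in 20 and fell in 8 of 35, among them Txnip, whose product holds thioredoxin back (3.23), Srxn1 (2.91), Hmox1 (1.80) and Nqo1 (1.47) upwards and Gpx3 (-2.65) downwards. All 3 metallothionein genes rose, Mt1 from 11.63, 11.66 and 11.49 to 13.50, 13.29 and 13.47, and 7 of 8 tested S100 genes rose with a median over the 8 of 2.03, S100a4 by 3.01 and S100b, the astrocyte form, by 1.99.

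Matrix genes went both ways within their families, beside 37.5% rises and 37.4% falls among all genes tested. The collagen counts lay near these shares. Of 60 tested laminins, proteoglycans and matrix glycoproteins, 23 rose and 32 fell. Reln, which encodes reelin, was at 6.57, 6.44 and 6.22 in NSCs and 11.50, 11.42 and 11.19 in astrocytes (change 4.96 ± 0.11, adjusted p = 4.9e-10), and Fn1, Sparc and Bgn rose by 2.11, 2.19 and 3.39. On the other side Fbn2, which encodes fibrillin 2, was at 10.69, 10.84 and 10.58 in NSCs and 6.87, 6.82 and 6.60 in astrocytes (change -3.94 ± 0.09, adjusted p = 8.5e-10), and Lama1, Thbs1 and Lamb1 fell (changes -3.10, -2.45 and -2.37), Lama1 passing the filter only through the NSCs. Thrombospondins thus went both ways, since Thbs2 rose by 2.88. Of 26 tested collagen genes 11 rose and 9 fell: Col23a1 was at 6.42, 6.17 and 6.39 in NSCs and 11.63, 11.46 and 11.39 in astrocytes (change 5.17 ± 0.09, adjusted p = 1.6e-10), and Col6a1 and Col6a2, chains of collagen VI, rose by 3.82 and 2.69. Mmp19 rose by 4.31 among 16 rises and 12 falls in 34 metalloproteinase and ADAMTS genes, and Itga4 fell by 3.53 among 9 rises and 7 falls in 17 integrin genes. Of 23 genes of the contractile cytoskeleton 14 fell and 4 rose. Acta2, the smooth muscle actin gene, was at 7.34, 6.96 and 6.60 in NSCs and 3.42, 3.31 and 2.59 in astrocytes (change -3.86 ± 0.26, adjusted p = 6.9e-07), Cnn2 and Tagln2 fell (changes -2.92 and -3.05), and Srf, the factor that switches on many of them, fell by 1.76. In 48 clustered protocadherin genes 33 rose and 4 fell, but these genes share exons, so reads may have been divided among them.

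Receptors and channels changed in both directions, beside 37.5% rises and 37.4% falls among all genes tested. In the glutamate and GABA receptor list 16 of 30 tested genes rose and 10 fell. Gabra5 was at 4.03, 3.76 and 3.74 in NSCs and 7.74, 7.78 and 7.75 in astrocytes (change 3.91 ± 0.13, adjusted p = 7.2e-09), and Gabbr2, a subunit of the GABA-B receptor, rose by 3.47. The metabotropic receptor gene Grm3, the partner of Grm5 in astrocytes, fell by 2.68. Potassium channel genes rose in 26 and fell in 19 of 50, with Kcnt1 at 6.27, 5.88 and 6.16 in NSCs and 10.49, 10.51 and 10.56 in astrocytes (change 4.42 ± 0.10, adjusted p = 7.4e-10). Of the 50, 4 passed the filter only through the astrocytes and 4 only through the NSCs. In the list of sodium, calcium and chloride channel genes, 21 of 36 rose while 11 fell. Of 234 tested solute carriers, 108 rose and 74 fell; besides Slc14a1, Slc22a4, a carnitine and ergothioneine transporter gene, had a change of 4.83 and passed only through the astrocytes, and Slc43a1, an amino acid transporter gene, fell by 3.53. Purine genes rose in 8 and fell in 7 of 17, with the ectonucleotidase gene Entpd2 at 3.83, through the astrocytes only, and Nt5e at -1.25, through the NSCs only; without astrocyte replicate 1 or 2, 5 rose. Among 26 secreted neurotrophic and synaptogenic factors, 11 rose and 13 fell: Igfbp7 and Pdgfd rose by 4.41 and 3.80, Nrtn, which passed only through the astrocytes, by 3.87, and Igfbp2 was at 14.15, 14.22 and 14.22 in NSCs and 9.89, 10.43 and 10.15 in astrocytes (change -4.04 ± 0.11, adjusted p = 1.7e-09).

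Astrocytes make complement, cytokines and interferon-stimulated proteins, and the culture steps named no immune stimulus. Of 16 tested complement genes of 26 listed, 11 rose and 3 fell (5 and 1 with a limit of 100 on the linear scale), with a median of 1.11. C4b, which encodes complement C4, was at 6.28, 6.73 and 6.16 in NSCs and 11.08, 10.67 and 11.14 in astrocytes (change 4.57 ± 0.16, adjusted p = 8.7e-09), C1s1 and C1ra, the proteases of the first complex, rose by 2.87 and 2.43, and Cd59a, which protects cells from the last one, by 4.00. C4b and C4a are near-identical copies, and reads may have been divided between them. In the list of genes of reactive astrocytes of either kind, without Gfap, 8 of 10 tested genes rose and none fell (1 after quantile normalization), and with any one astrocyte library left out 5 of 7 tested genes rose. Serpina3n was at 5.79, 6.10 and 5.64 in NSCs and 10.91, 10.14 and 10.42 in astrocytes (change 4.64 ± 0.19, adjusted p = 2e-08), and Osmr, the oncostatin M receptor gene, at 5.70, 5.67 and 4.65 in NSCs and 8.99, 8.88 and 8.70 in astrocytes (change 3.52 ± 0.25, adjusted p = 1e-06). Steap4, Lcn2 and Hspb1, with changes of 2.72, 2.37 and 2.25, passed only through the astrocytes, while Cxcl10 and Timp1 did not pass the test, at -0.24 and 0.21. Of the genes used for the A1 type, without C3, 5 of 7 rose and 1 fell. Of these 7, 2 passed only through the astrocytes, and 3 of 5 rose with any one astrocyte library left out. Of the genes for A2, 6 of 9 rose and 3 fell (0 to 1 without any one NSC library). Of these 9, 1 passed only through the astrocytes and 2 only through the NSCs. Cytokine and chemokine genes rose in 18 and fell in 4 of 31: Clcf1, through the astrocytes only, and Cntf, ligands of the gp130 receptor, rose by 3.78 and 2.54, the receptor gene Il6st by 2.25, Csf1 by 2.61 and Il1r1 by 3.38.

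Interferon-stimulated genes were 35 tested of 48 listed, of which 27 rose and 3 fell, with a median of 0.84, and 3 of the 35 passed only through the astrocytes. Ifit3 was at 4.34, 4.09 and 4.24 in NSCs and 6.94, 6.93 and 7.12 in astrocytes (change 2.77 ± 0.14, adjusted p = 8.2e-08), Gbp2, a guanylate-binding protein gene, at 6.35, 6.48 and 6.34 in NSCs and 9.41, 9.20 and 9.31 in astrocytes (change 2.91 ± 0.09, adjusted p = 3.5e-09), and Ifit3b rose by 4.05. Reads of Ifit3 and Ifit3b, which are similar copies, may have been divided between them. The signalling genes Stat2 and Irf9 rose by 1.09 and 0.95, in both cases with groups that did not overlap. Irf7 and Rsad2, often among the most induced, did not pass the test, with Irf7 at 3.23, 3.58 and 4.00 in NSCs and 4.07, 3.98 and 3.43 in astrocytes and Rsad2 at 4.06, 4.27 and 4.17 in NSCs and 3.45, 4.05 and 3.98 in astrocytes, while the 3 falls were those of Gbp3, Trim25 and Cmpk2 (-1.45, -0.91 and -0.34), of which 1 was left without NSC replicate 1; the call of Cmpk2 was also lost with median centring (adjusted p = 0.0726) and without NSC replicate 2 or astrocyte replicate 1 or 2 (adjusted p 0.0661 to 0.116). After quantile normalization Rsad2 did pass, with a change of -0.62. Of the genes of MHC class I presentation, 8 of 19 rose and 4 fell, and B2m, the light chain, was at 10.64, 10.62 and 10.55 in NSCs and 10.63, 10.65 and 10.75 in astrocytes. The interferon-stimulated response element, searched as TTTC, any 2 bases and TTTC, stood on either strand in 19 of 36 listed genes with a promoter sequence (52.8%), 12 of 21 that rose and 1 of 3 that fell, and in 3.49% of all promoters. The 250 bases before the start of Ifit3 (chr19:34583279-34583528, + strand), shown because Ifit3 holds 2 matches and rose, have both in capitals.
Ifit3: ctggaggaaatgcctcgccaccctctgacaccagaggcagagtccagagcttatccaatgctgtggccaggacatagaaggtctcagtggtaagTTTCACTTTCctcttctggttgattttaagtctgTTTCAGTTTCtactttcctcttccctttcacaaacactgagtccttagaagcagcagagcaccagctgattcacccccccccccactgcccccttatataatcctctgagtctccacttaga

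The response was then compared with that of the other lines by testing the difference of the changes over 12 libraries per pair of lines. Against the tdTomato spinal cord line 1781 of 15117 genes differed (11.8%), the change being higher in the EYFP line for 911 (6.03%) and lower for 870 (5.76%), and for 345 by at least 1 (2.28%). This balance turned with the scaling, to 788 higher and 984 lower with median centring and 879 and 899 after quantile normalization. Without NSC replicate 1 of the EYFP line the number was 1119. Against the hippocampal line 5619 of 15236 differed (36.9%), 2498 higher in the EYFP line (16.4%) and 3121 lower (20.5%), and 1442 by at least 1 (9.46%). Here too it turned, to 3112 higher and 2625 lower with median centring and 3114 and 2677 after quantile normalization. Each pair of groups came from a single line, so line and genotype, and for the hippocampal line also tissue of origin, cannot be told apart.

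In cholesterol synthesis, 19 of 26 genes differed from the tdTomato line (15 to 20 with any one EYFP library left out), beside 11.8% of all genes. In all 19 the change was less negative in the EYFP line. Idi1 changed by -1.86 in the EYFP and -2.80 in the tdTomato line (difference 0.94, adjusted p = 0.0016). Against the hippocampal line 11 of the 26 differed, a share close to the 36.9% of all genes, with the EYFP line lower in 10. Of the 31 MAPK feedback genes, 13 differed from the tdTomato line, beside the same 11.8%, all with the lower change in the EYFP line. Dusp6 (-4.94 and -3.99) and Etv4 (-1.80 and -0.97) were among the 13. Without NSC replicate 1 or 2 of the EYFP line 8 differed, also all lower. Against the hippocampal line 12 of the 31 differed, 10 with the lower and 2 with the higher change in the EYFP line, a share close to the 36.9% of all genes. From the tdTomato line the differing genes thus lay above in the one list and below in the other. Hes5 differed from both other lines, with changes of -0.12 in the EYFP, 1.32 in the tdTomato and -2.26 in the hippocampal line (differences -1.44, adjusted p = 0.0055, and 2.15, adjusted p = 3.9e-05).

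Against the hippocampal line, all 35 interferon-stimulated genes that had passed the filter in the EYFP libraries differed, each with the lower change in the EYFP line. Another 9 were tested through the hippocampal libraries, of which 4 reached the limit in hippocampal astrocytes alone and so had to differ. The change of Oasl2 was 0.84 here and 7.85 in hippocampal cells, and that of Ifit3 was 2.77 and 6.65 (difference -3.88, adjusted p = 2e-07). All 10 reactive genes without Gfap that had passed in the EYFP libraries also differed in that direction, and 2 more were tested through the hippocampal libraries. Among the 10 were Lcn2 (2.37 and 6.27) and Vim (0.74 and 2.24). The respiratory chain and ATP synthase genes went the other way: 66 of 80 differed, all with the higher change in the EYFP line, by amounts small beside those of the immune genes. From the tdTomato line 7 of 38 interferon-stimulated genes and 4 of 79 respiratory chain genes differed (3 to 6 and 0 to 4 with any one EYFP library left out, lowest without astrocyte replicate 1 for the former and without NSC replicate 1 for the latter), beside the 11.8% of all genes.

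**Figure D5:**
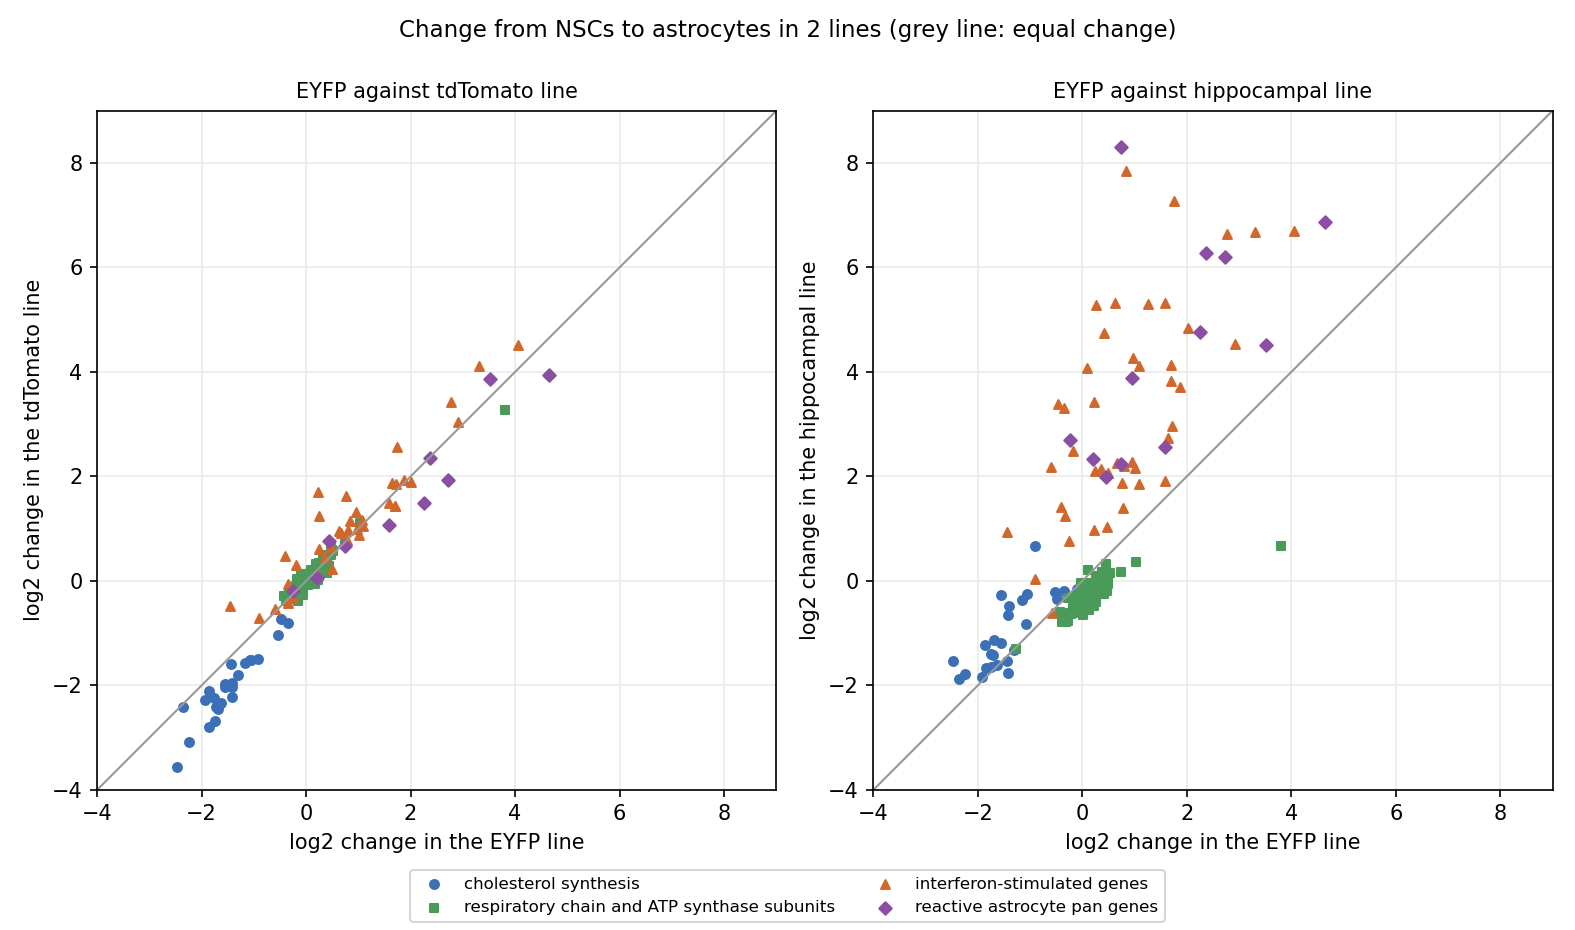
Log2 change from NSCs to astrocytes in the EYFP line (horizontal axis) against that in the tdTomato line (left) and the hippocampal line (right), with 1 point per gene of 4 lists (Gfap left out) and a grey line of equal change. On the left the cholesterol genes lie below the line, and on the right the interferon-stimulated and reactive genes lie above it, with Oasl2 at 0.84 on the horizontal and 7.85 on the vertical axis.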

How the data were processed

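The 18 libraries are poly(A) mRNA-seq libraries of NSCs and astrocytes of 3 lines, read single-end on an Illumina HiSeq; the sources disagree on the library kit, the read length, the number of reads per library and the RSEM version. The authors trimmed reads with Trimmomatic 0.36, aligned them with STAR 2.5.2 and counted genes with RSEM 1.3.0 against GRCm38 and Ensembl gene models, and deposited log2 values normalized with DESeq2 1.18.1 in R 3.4.3, per the submitters' processing notes, from which the versions are taken, and the paper's methods. The form of these log2 values, 29.4% of them below 0, is that of a regularized log, which the sources used here do not name; such a transform pulls weak genes to their mean and may understate their changes, and with no reads per library in the table the counting error is not known.

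The 6 EYFP libraries were taken by their labels. Genes at about 10 or more on the linear scale (a rounded log2 limit) in 3 or more libraries of a fit were tested. The test used the log2 values as they stood, with no pseudocount, by limma 3.58.1 (in R 4.3.3). It had a variance trend and Benjamini-Hochberg adjustment over all genes tested at 0.05. Differences between lines were tested as the interaction of fate and line over 12 libraries. The steps were tested on simulated data. Named genes were the 15 largest rises and falls among protein-coding genes past the test with groups that did not overlap. Their mean in the higher group was at least 6.64 in log2 (about 100 on the linear scale). The 5 largest differences from each line by the same criteria and members of 77 lists and families were also named. The members, lists and motifs were chosen with earlier results of these data known. Some named genes and list members are not reported here. Symbols and coordinates came from GENCODE M21, and promoter sequences from RefSeq (GRCm38.p6). Alternatives were other filters, pseudocounts of 1 and 10, median centring, quantile normalization, no trend, all 18 libraries in 1 fit, the replicate number as a block, and each library left out in turn.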

Additional observations from a re-analysis of the deposited data

Results flagged for a closer look

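The response of the EYFP line differed from that of the tdTomato line for 1781 genes and from that of the hippocampal line for 5619, by limma's test of the difference of the changes with Benjamini-Hochberg adjustment. Of the 30 largest changes of the EYFP line, 10 differed from the tdTomato line and 16 from the hippocampal line, beside 11.8% and 36.9% of all genes tested; the 30 were chosen for extreme changes in the EYFP line, which favours a difference from another line, so these counts are a description. These were picked out because the same contrast gave unequal effects in the lines.

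Against the tdTomato line, the largest difference among the named genes was that of Cxcl12, which encodes a chemokine: its mean went from 4.40 to 3.21 in the EYFP and from 5.70 to 8.18 in the tdTomato line, a difference of -3.66 ± 0.27 (adjusted p = 2.2e-05). In the EYFP astrocytes Cxcl12 reached the expression limit in 1 of 3 libraries. Celf4, an RNA-binding protein gene of neurons, went from 3.47 to 3.65 and from 7.23 to 4.24 (difference 3.16, adjusted p = 0.00011). It reached the expression limit in 1 of 3 EYFP NSC libraries, so a fall like that of the tdTomato line could hardly be seen. Sparcl1 rose in both lines, from 11.14 to 16.51 and from 13.27 to 15.82 (difference 2.82, adjusted p = 6.9e-06). Stk32b, which reached the expression limit in all NSC libraries but in no EYFP and 1 tdTomato astrocyte library, changed by -2.10 and -4.65, a difference of 2.55 given with no test since the astrocytes lay near or under that limit and the NSCs were higher in the tdTomato line. Smoc2, a matricellular protein gene, changed by 0.50 and -2.04 (difference 2.54, adjusted p = 1.3e-05). Its change in the EYFP line did not pass limma's test after quantile normalization (0.26, adjusted p = 0.159). The same held without NSC replicate 2 (adjusted p = 0.0614) or astrocyte replicate 3 (adjusted p = 0.0559). Cxcl12 went opposite ways in the 2 lines, while Celf4 and Smoc2 had their larger change in the tdTomato line and started higher there.

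Of the 5 largest differences from the hippocampal line, 4 are genes that reached the expression limit only in the hippocampal astrocytes and so had to differ; their values are given with no test. Serpina3m changed by 0.08 here and 8.47 in hippocampal cells (difference -8.40), Galnt9 by 0.32 and 8.27 (difference -7.94), Aspg by 0.75 and 8.30 (difference -7.55) and Ifi202b, known to answer interferon, by 0.08 and 6.90 (difference -6.83). The interferon-stimulated Oasl2, which reached the limit in the astrocytes of both lines and in no NSC library, changed by 0.84 and 7.85 (difference -7.02), also given with no test. Serpina3m and Ifi202b belong to families of similar copies, so reads may have been divided among relatives.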

How the results depend on the processing

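Of the 4 totals, 2 moved by over 1.5 times under 1 alternative each: 1119 in place of 1781 genes differed from the tdTomato line without EYFP NSC replicate 1, and 2339 in place of 3568 changed by at least 1 with a filter of 100 on the linear scale, which tests fewer genes. Leaving out each library gave 9987 to 10354 genes changed, 3182 to 3408 changed by at least 1, 1119 to 2248 different from the tdTomato and 4912 to 5443 from the hippocampal line. Of 4487 pairs of a named gene and a setting, 4432 kept their side of the threshold and, where the gene was called, its direction. The 1 called change that turned was that of Slc1a3, -0.11 after quantile normalization. Of 2460 pairs of a list count and a setting, 2365 stayed within 1.5 times, and 26 of the others came with the filter of 100, which tests fewer genes; median centring left 5 in place of 9 falls in BMP receptors and SMADs and 8 in place of 4 rises in mitochondrial ribosomal proteins. The cause was not tested.

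Same-numbered NSC and astrocyte libraries did not deviate together (correlations -0.0505, -0.0058 and -0.0797). This cannot decide whether libraries with the same number came from the same passage, which was not tested. With a replicate block 10860 genes changed, 3571 by at least 1, and 1954 differed from the tdTomato and 5712 from the hippocampal line. The calls of Pygl and Cmpk2 were lost with it (adjusted p = 0.0706 and 0.0574). The reads behind each value are not in the table.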

Other observations

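Axon guidance genes rose and fell in shares close to those of all genes tested. Of 55 tested genes 24 rose and 20 fell, beside 37.5% and 37.4% of all genes tested. Sema4d and Robo2 rose by 3.16 and 1.77, and the repellent and attractant ligand genes Sema5a and Ntn1 fell (changes -2.99 and -2.50). Among 9 glypican and syndecan genes, which encode heparan sulfate carriers that bind growth factors, 3 rose and 6 fell, with Gpc4 at -2.28 and Sdc3 at -2.09.

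In the cytoskeleton, 15 of 20 tubulin genes fell and 3 rose (1 after quantile normalization), and Tuba4a stood apart at 4.59. Kinesins rose in 17 and fell in 19 of 39, a list that holds the motors of the mitotic spindle; Kif5a, a motor of long-range transport, and Kif26b rose by 2.59 and 4.46. Of 16 glutathione S-transferase genes 8 rose and 4 fell, with Mgst1 at 2.06, and Aldh1a1, which makes retinoic acid, rose by 2.77 among 7 rises and 3 falls in 13 aldehyde dehydrogenase genes. Klf genes fell in 9 and rose in 3 of 14, Klf4 at -1.77, and the forkhead factor gene Foxi2, which passed only through the astrocytes, rose by 4.32.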
